A study of Mus musculus with 18 samples.

Results

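Genomic imprinting silences a gene on the chromosome inherited from one parent, so that RNA comes mainly from the maternal or the paternal copy. Imprinted genes lie in clusters, and a differentially methylated control region sets the expressed copy for several genes of a cluster together. Many of them act on growth, on the insulin-like growth factor (IGF) pathway or on cell cycle exit, and several are known for their roles in stem cells and in the brain. The 37 genes considered here were listed by name from common knowledge of imprinting, but with earlier results of these data known. Of these, 32 were found among the 27997 genes of the table and 25 passed a filter on low values, which asked for 3.32 or more on the log2 scale in 3 libraries. Meg3, Rian, Mirg, Rtl1 and Magel2 were not analysed here.

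RNA was sequenced from adherent neural stem cells (NSCs) and from astrocytes derived from them, in 3 mouse lines with 3 libraries for each line and cell type. The tdTomato and EYFP lines came from spinal cord cells with a history of DNGR-1 (Clec9a) expression. They were sorted from neurospheres of mice in which Clec9a-driven Cre switches on a Rosa reporter, with the genotypes DNGR-1 +/- Tom+/- and DNGR-1 +/- EYFP+/-. The hippocampal line, DNGR-1+/+, came from mice with Glast-Cre, a floxed Huwe1 allele and an EYFP reporter, and whether Huwe1 had been recombined in it is not stated. NSCs were grown with EGF and bFGF and collected after 4 days, and astrocytes were made with BMP4 and collected after 6 days. The methods of the study give the mice in general as young adults, with no age for each line. The libraries of a line were cultures of that line at passages 10 to 12 and not separate derivations, and which library number stands for which passage is not stated. The p-values thus measure the spread between cultures and passages, and line, mouse, reporter and, for the hippocampal line, tissue cannot be told apart. The values are relative to library size and do not separate the parental copies.

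Levels are given as deposited log2 values, and differences as the first group minus the second on that scale with their standard error (SE). The values have the form of a transform that pulls low genes towards their mean, but the transform is not named. A gene was called changed where limma, with Benjamini-Hochberg adjustment across 15448 genes, gave a p below 0.05. Gene positions are those of GENCODE M21 (GRCm38). Median differences between libraries of a group were 0.0607 to 0.107. The listed markers moved only in part with the labels. Of 4 astrocyte markers 4, 3 and 3 rose in the tdTomato, EYFP and hippocampal lines, and of 4 NSC markers 2, 2 and 1 fell while 2 rose in each. Gfap, the astrocyte filament protein, had group means of 9.06 to 9.30 in NSCs and 15.14 to 16.40 in astrocytes. Nes, a filament protein of neural stem cells, was at 13.86 to 14.27 in NSCs and at 11.09 and 10.86 in tdTomato and EYFP astrocytes, but at 13.64 in hippocampal astrocytes. Sox2 and Vim, which also mark NSCs, had higher means in the astrocytes than in the NSCs of each line: Sox2 was at 11.29 to 12.05 in NSCs and at 12.64 or more in astrocytes, and Vim at 15.18 to 15.31 and 15.97 to 17.42. Aldh1l1, an astrocyte enzyme, was at 10.28 in both hippocampal groups and at 6.52 to 7.17 in the traced groups. The defining markers Aif1 of microglia, Cdh5 of endothelium and Col1a2 of fibroblasts stayed between -2.15 and -1.99, by the lowest value of the table, whereas other listed genes of these cells did not: Flt1 of endothelium had means of 5.07, 5.18 and 3.43 in tdTomato, EYFP and hippocampal astrocytes, and Lum of fibroblasts 4.46, 3.79 and 1.56. Summed on the linear scale and written as log2, 2 of 4 listed ependymal genes ranged over 9.42 to 10.49 in NSCs, 10.98 to 11.32 in traced astrocytes and 12.13 to 12.30 in hippocampal astrocytes. The 4 oligodendrocyte genes ranged over 6.46 to 6.92, 9.59 to 10.34 and up to 8.25 in the same order, with Mog and Mag at -1.85 to -1.04 throughout. The sum of 4 neuron genes lay between 7.23 and 8.13 in NSCs and 8.31 and 8.79 in astrocytes. In NSCs, traced astrocytes and hippocampal astrocytes, 3 endothelium genes summed to 3.82 to 5.14, 5.14 to 5.61 and 3.33 to 4.21, and 5 fibroblast genes to 4.63 to 5.25, 5.05 to 5.94 and 4.23 to 4.44. The 3 microglia genes stayed between 0.96 and 2.00 in all libraries. In such bulk samples fewer cells of a type and less RNA per cell cannot be told apart. The part of these marker shifts in the results on imprinted genes was not tested.

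The promoters of genes on which the results turn are shown so that their letters can be read beside the values. Each window covers 250 bases before and 50 after a RefSeq transcript start (GRCm38.p6), is written in the direction of transcription, and has in capitals each match, on either strand, to TGCCGC, the methylated hexamer bound by ZFP57. Of the 32 genes found, 27 had such windows, 42 in all, and 9 of them had a match in 10 windows. Of all 32851 windows, 11.6% held one. The median number of CpG in these windows was 15 against 7 in all windows. A match is a description of letters and not a site of binding.
Mest, chr6:30737800-30738099, plus strand, 17 CpG: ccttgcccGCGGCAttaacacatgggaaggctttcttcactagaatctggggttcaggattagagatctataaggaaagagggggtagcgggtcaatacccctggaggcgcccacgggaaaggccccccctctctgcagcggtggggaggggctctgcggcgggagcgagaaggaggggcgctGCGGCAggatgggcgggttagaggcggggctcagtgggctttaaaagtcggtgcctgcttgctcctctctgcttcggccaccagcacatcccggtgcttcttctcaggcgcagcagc
Nnat, chr2:157559828-157560127, plus strand, 17 CpG: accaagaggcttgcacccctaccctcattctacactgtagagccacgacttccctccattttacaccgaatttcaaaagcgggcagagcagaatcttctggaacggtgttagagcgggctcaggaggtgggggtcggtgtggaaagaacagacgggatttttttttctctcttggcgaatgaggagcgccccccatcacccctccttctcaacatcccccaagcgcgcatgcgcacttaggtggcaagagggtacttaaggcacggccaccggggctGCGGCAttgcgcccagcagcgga
Peg3, chr7:6730370-6730669, minus strand, 13 CpG: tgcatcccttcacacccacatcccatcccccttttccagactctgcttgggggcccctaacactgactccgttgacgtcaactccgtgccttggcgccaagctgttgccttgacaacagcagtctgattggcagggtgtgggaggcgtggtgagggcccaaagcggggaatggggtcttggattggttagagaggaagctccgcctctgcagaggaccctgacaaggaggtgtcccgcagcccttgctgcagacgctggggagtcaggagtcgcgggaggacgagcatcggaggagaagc
Zim1, chr7:6696383-6696682, minus strand, 20 CpG: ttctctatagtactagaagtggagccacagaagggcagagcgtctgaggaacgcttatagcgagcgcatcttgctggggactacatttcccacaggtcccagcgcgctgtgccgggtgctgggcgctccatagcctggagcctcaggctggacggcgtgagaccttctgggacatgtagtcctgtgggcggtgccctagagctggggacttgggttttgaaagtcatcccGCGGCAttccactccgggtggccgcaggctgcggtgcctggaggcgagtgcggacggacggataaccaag
Grb10, chr11:12037371-12037670, minus strand, 45 CpG: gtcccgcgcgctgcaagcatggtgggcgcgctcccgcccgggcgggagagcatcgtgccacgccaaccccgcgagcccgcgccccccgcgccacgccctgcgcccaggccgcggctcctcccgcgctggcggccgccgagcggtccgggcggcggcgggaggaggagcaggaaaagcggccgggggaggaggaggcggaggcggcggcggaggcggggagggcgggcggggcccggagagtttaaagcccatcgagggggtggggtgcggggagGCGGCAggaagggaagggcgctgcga
The Mest window held 2 matches, the Nnat, Zim1 and Grb10 windows 1 each and the Peg3 window none. RefSeq gives other starts for Mest, with windows at chr6:30733256-30733555 (8 CpG, no match) and chr6:30737803-30738102 (17 CpG, 2 matches), and for Grb10, with a window at chr11:12027922-12028221 (9 CpG, no match). The starts of Peg3 and Usp29 lay 147 bases apart on opposite strands, and Nnat lay within the span of Blcap.

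Most of the imprinted genes tested changed on differentiation, in both directions. In the EYFP and hippocampal lines the shares that rose and fell were near those of all genes. In the tdTomato line 11 of the 25 tested rose and 12 fell, where 39.9% of all genes tested rose and 38.5% fell. In the EYFP line 9 rose and 10 fell, beside 38.2% and 37% of all genes. In the hippocampal line 9 rose and 10 fell as well, beside 39% and 37.3%. The median size of the change was 0.733, 0.662 and 0.8 for the imprinted genes and 0.546, 0.491 and 0.509 for all genes, in the same order of lines. Across all lines 8 genes rose (Plagl1, Airn, Kcnq1ot1, Cd81, Sgce, Impact, Blcap and Gnas), a pattern of 28.1% of all genes, and 6 fell (Peg12, Mest, Peg10, Usp29, Cdkn1c and Nnat), a pattern of 27.8%.

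Among the genes that fell was Peg12 (chr7:62461871-62464510), a paternally expressed relative of the Frat regulators of Wnt signalling. It was at 9.39, 9.44 and 9.45 in tdTomato NSCs, 9.58, 9.58 and 9.67 in EYFP NSCs and 9.64, 9.64 and 9.58 in hippocampal NSCs. In astrocytes of the same lines it was at 5.76, 5.78 and 5.66, 6.01, 5.94 and 5.997 and 6.20, 6.35 and 6.24. No NSC library overlapped an astrocyte library, and the changes of -3.69, -3.63 and -3.36 (SE 0.06 each) were the largest falls of any imprinted gene tested in the tdTomato, EYFP and hippocampal lines.

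Cdkn1c (chr7:143458339-143461050) encodes the cyclin-dependent kinase inhibitor p57, a maternally expressed brake on the cell cycle. It lies below the level at which a gene was to be described in full and was added after its values were seen. Cdkn1c was at 6.04, 6.21 and 6.20 in tdTomato NSCs, 5.26, 5.29 and 5.54 in EYFP NSCs and 5.08, 4.64 and 5.32 in hippocampal NSCs. Its astrocyte values were 4.10, 3.95 and 3.97, 3.65, 3.29 and 3.21 and 2.45, 2.93 and 2.84. Cdkn1c fell during differentiation, with changes of -2.14, -1.98 and -2.27 (SE 0.19 each), and was higher in the tdTomato than in the hippocampal line in both cell types, by 1.13 (adjusted p = 0.00011) and 1.27 (adjusted p = 1.5e-05). The EYFP line had a difference of 0.35 from hippocampal NSCs, with overlap (adjusted p = 0.2), and of 0.64 from hippocampal astrocytes (adjusted p = 0.0078), and lay below the tdTomato line in NSCs, with a difference of -0.79 (adjusted p = 0.004). The change of Cdkn1c in the hippocampal line shrank from -2.27 to -1.34, and its astrocyte differences from the hippocampal line from 1.27 to 0.64 (tdTomato) and from 0.64 to 0.29 (EYFP, adjusted p = 0.048), with a pseudocount of 10. That between EYFP and tdTomato astrocytes went from -0.63 to -0.35 and was no longer called (adjusted p = 0.057). The same difference was also not called without tdTomato library 1, 2 or 3 or EYFP library 2 or 3 (adjusted p from 0.063 to 0.13). It was lost as well with only the groups compared (adjusted p = 0.1) and without a filter (adjusted p = 0.063). Of its exonic bases, 30.7% overlapped Gm44732 on the other strand, and whether counting used strand is not stated. Kcnq1ot1 and Cd81, the other listed genes of the Kcnq1 cluster that were tested, rose. Kcnq1ot1 (chr7:143203458-143296549), the paternal long noncoding RNA that silences that cluster, was at 6.90, 7.28 and 7.07 in tdTomato NSCs and 8.12, 8.82 and 8.66 in tdTomato astrocytes. It was at 7.06, 7.35 and 6.87 and 7.66, 8.78 and 8.21 in the EYFP line and at 6.997, 6.98 and 6.93 and 6.87, 8.33 and 7.79 in the hippocampal line. In each line the astrocyte library numbered 1 was the lowest and that numbered 2 the highest, and in the hippocampal line library 1 fell below the NSC libraries. The rise was 1.45 ± 0.30 (adjusted p = 0.00024), 1.12 ± 0.30 (adjusted p = 0.0023) and 0.69 ± 0.30 (adjusted p = 0.042), and the last was not called when any of 5 of the 6 libraries was left out, with values from 0.36 (without astrocyte library 2) to 0.70. Cd81, a tetraspanin of the cell surface, was at 14.23, 14.31 and 14.29 in tdTomato NSCs, 14.14, 14.14 and 14.13 in EYFP NSCs and 14.19, 14.24 and 14.26 in hippocampal NSCs. Its astrocyte values of 15.29, 15.23 and 15.29, 15.15, 15.08 and 15.18 and 15.23, 15.14 and 15.09 lay above all of these, a rise of 0.99, 1.01 and 0.92 (SE 0.05 each). With quantile normalization the last was 0.45.

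Plagl1 (chr10:13060504-13131694), a paternally expressed zinc finger gene known to restrain growth, rose in each line. Its values were 6.81, 6.74 and 6.82 in tdTomato NSCs, 7.01, 6.81 and 6.92 in EYFP NSCs and 7.14, 7.12 and 7.01 in hippocampal NSCs, and 8.59, 8.55 and 9.02, 8.81, 8.78 and 8.88 and 9.36, 9.52 and 9.66 in the astrocytes. All 9 astrocyte libraries lay above all 9 NSC libraries, and the hippocampal astrocytes lay above the other astrocytes. The rises were 1.93, 1.91 and 2.43 (SE 0.10 each), and the hippocampal astrocytes exceeded the tdTomato and EYFP astrocytes by 0.80 (adjusted p = 4.1e-06) and 0.69 (adjusted p = 2.4e-05).

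Peg10, a gene derived from a retrotransposon that is best known for its need in the placenta, and Sgce, the epsilon-sarcoglycan gene, start 99 bases apart on opposite strands and are both paternally expressed. They went opposite ways: Peg10 changed by -1.32, -1.06 and -0.75 (SE 0.08 each) in the tdTomato, EYFP and hippocampal lines and Sgce by 0.73, 0.52 and 0.84 (SE 0.07 each). Peg10 was at 12.41, 12.73 and 12.71 in tdTomato NSCs, 12.10, 12.27 and 12.09 in EYFP NSCs and 11.86, 11.97 and 11.69 in hippocampal NSCs, without overlap between the lines. In astrocytes it lay between 11.01 and 11.34 in all lines. Sgce ranged over 9.35 to 9.99 in NSCs and 10.20 to 10.49 in astrocytes. The differences of Peg10 from hippocampal NSCs were 0.77 (adjusted p = 4.9e-07) for the tdTomato line and 0.31 (adjusted p = 0.0067) for the EYFP line, and those of Sgce were 0.26 (adjusted p = 0.0039) and 0.44 (adjusted p = 6.3e-05).

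**Figure D1:**
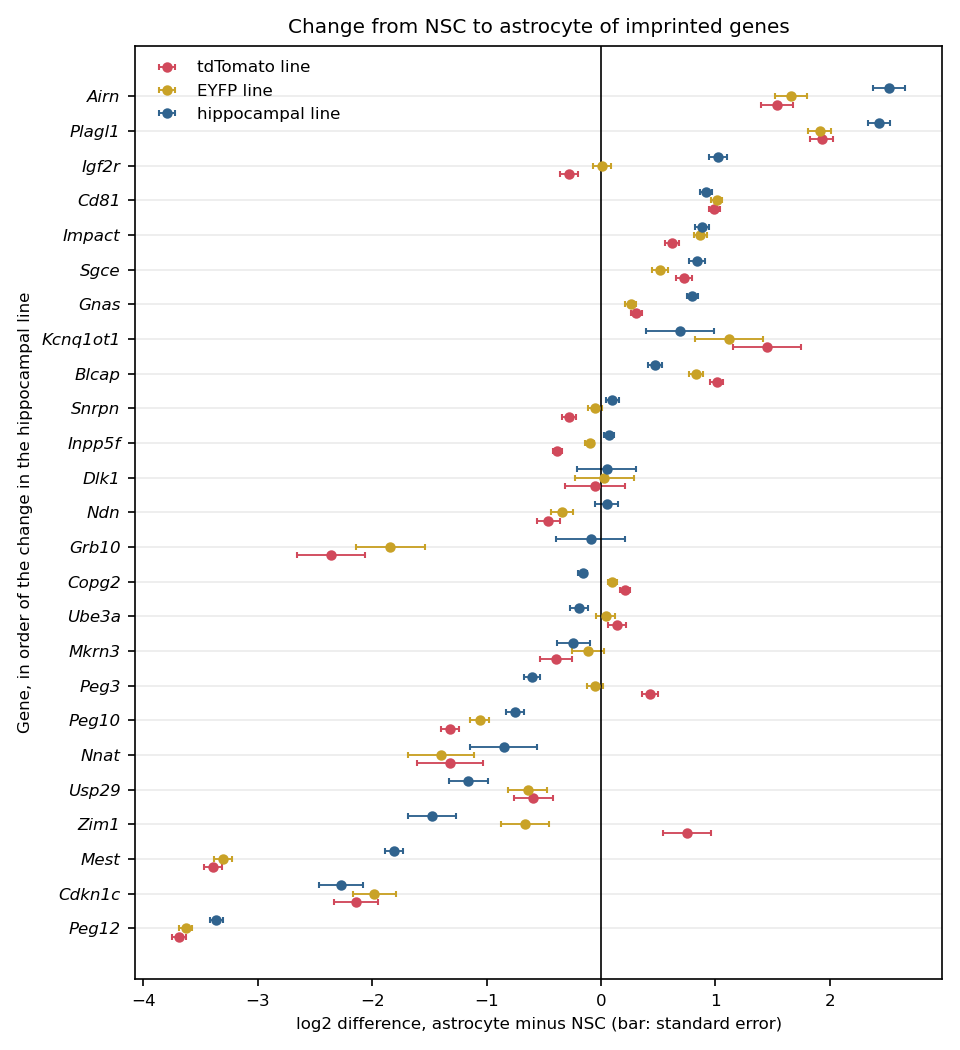
Change from NSC to astrocyte for the 25 imprinted genes tested, as astrocyte minus NSC on the log2 scale (x axis), with 1 point per line and bars for the SE. Peg12, Cdkn1c and Mest lie far to the left and Plagl1 and Airn to the right in all lines, while Grb10 lies at -2.36 and -1.84 in the traced lines and at -0.09 in the hippocampal line.

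The changes of 4 imprinted genes were different between the traced lines and the hippocampal line by at least 1, as were those of 10.2% of all genes tested. These were Mest, Grb10, Zim1 and Igf2r. The difference was tested directly, as the mean change of the traced lines minus the change of the hippocampal line. Called as risen in 1 line and fallen in another were 4 genes, a pattern of 5.64% of all genes: Peg3, Zim1, Igf2r and, with changes of no more than 0.21, Copg2.

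Mest (chr6:30723547-30748465), a paternally expressed gene for an enzyme of the alpha/beta hydrolase fold, was at 13.94, 14.01 and 14.09 in tdTomato NSCs and 14.11, 14.28 and 14.35 in EYFP NSCs. It was lower in hippocampal NSCs, at 12.65, 12.51 and 12.57, with no overlap. In astrocytes the lines lay closer to each other, at 10.58, 10.60 and 10.70, 10.94, 10.78 and 11.12 and 10.63, 10.84 and 10.86. The change was -3.39 and -3.30 in the traced lines and -1.81 in the hippocampal line (SE 0.08 each), and the difference in change was -1.54 ± 0.10 (adjusted p = 1.6e-09). In EYFP against tdTomato cells Mest was higher by 0.23 in NSCs (adjusted p = 0.037) and by 0.32 in astrocytes (adjusted p = 0.012), the first not called when any of 4 of the 6 libraries was left out and the second without EYFP library 3 (0.23, adjusted p = 0.084). In NSCs Mest was higher than in the hippocampal line by 1.44 (tdTomato, adjusted p = 1.7e-10) and 1.67 (EYFP, adjusted p = 3.1e-11). Copg2, which encodes a coatomer subunit and overlaps the end of Mest on the other strand, stayed between 10.91 and 11.22 in all 18 libraries. Its differences from hippocampal NSCs were -0.23 (tdTomato, adjusted p = 0.00025) and -0.07 (EYFP, adjusted p = 0.25). The shared exons make up 23.1% of Mest and 17.8% of Copg2.

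Grb10 (chr11:11930508-12038683), an adaptor that dampens insulin and IGF receptor signalling, lies below the level at which a gene was to be described in full and was added after its values were seen. It was at 6.23, 6.10 and 6.01 in tdTomato NSCs and 5.20, 5.39 and 5.19 in EYFP NSCs, against 3.12, 3.36 and 3.09 in hippocampal NSCs. The astrocyte libraries had values of 3.42, 3.69 and 4.17, 3.92, 2.47 and 3.88 and 2.77, 3.13 and 3.40. The traced NSCs stood above all other libraries. The EYFP astrocytes overlapped both other astrocyte groups, while the tdTomato astrocytes lay above the hippocampal ones. Grb10 was 2.92 ± 0.30 higher in tdTomato than in hippocampal NSCs (adjusted p = 5.1e-07) and 2.07 ± 0.30 higher in EYFP NSCs (adjusted p = 4.6e-05). The difference in change was -2.00 ± 0.37 (adjusted p = 0.00024). With a pseudocount of 10 the EYFP difference in NSCs went from 2.07 to 1.34 and the EYFP change from -1.84 to -1.18. Ddc, its neighbour and a gene of dopamine synthesis, did not pass the filter and ranged over 0.75 to 3.48, with its highest values, 3.12, 2.86 and 3.48, in EYFP NSCs.

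**Figure D2:**
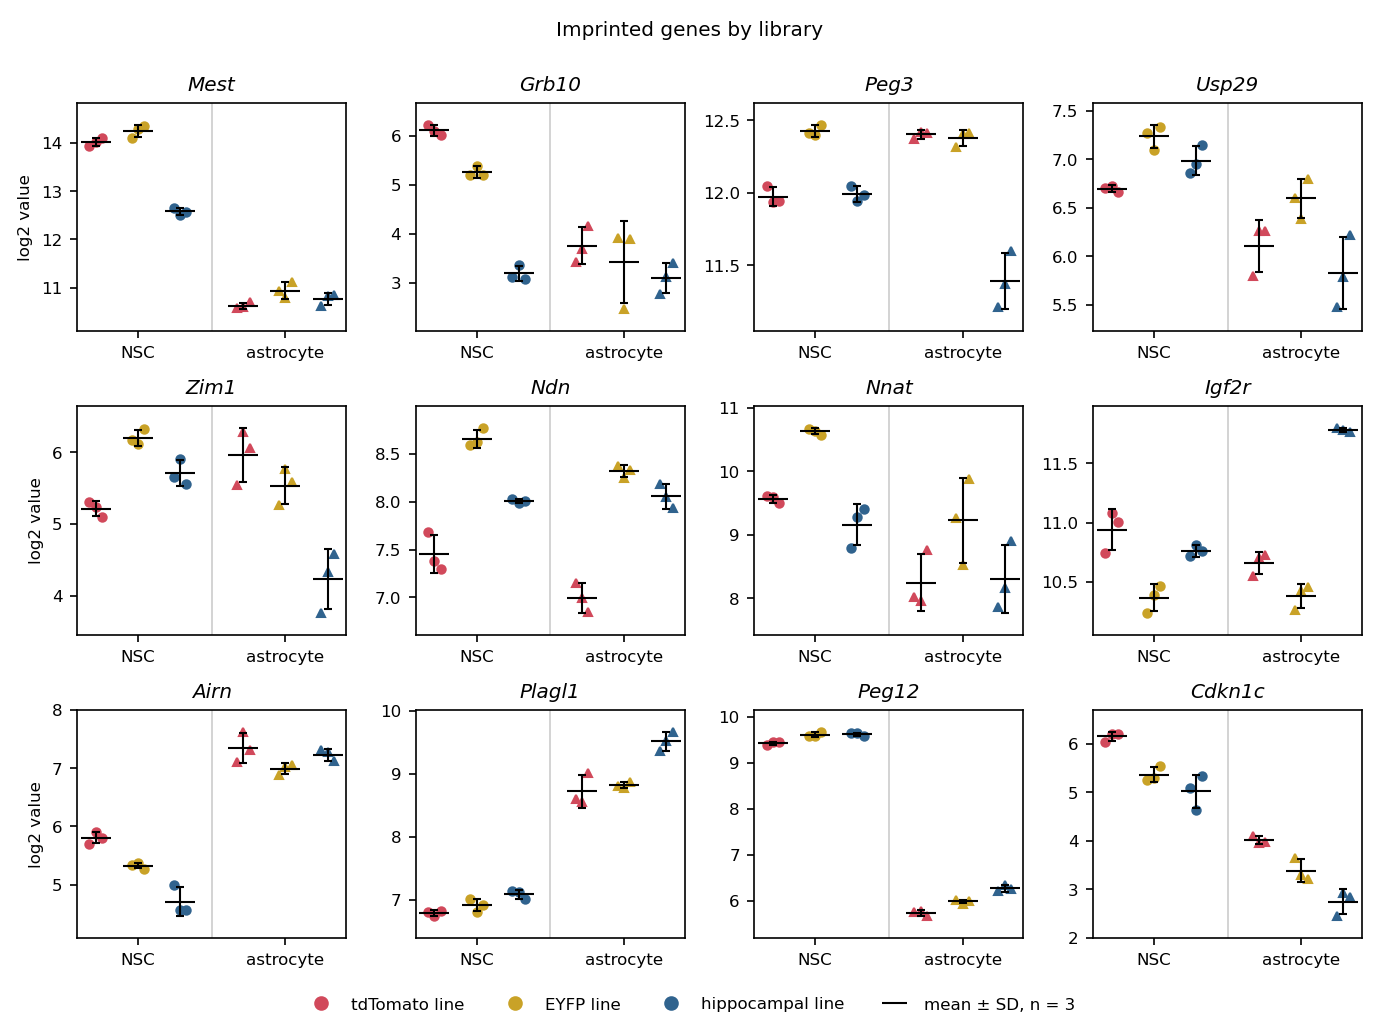
Deposited log2 values (y axis) of 12 imprinted genes in each of the 18 libraries, NSCs as circles on the left and astrocytes as triangles on the right of each panel, with the mean and SD of the 3 libraries in black. Traced NSCs stand above hippocampal NSCs for Mest and Grb10, hippocampal astrocytes stand apart for Peg3, Zim1 and Igf2r, and the tdTomato line is lowest for Ndn in both cell types.

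The 3 tested genes of the Peg3 cluster were called in the same direction in 2 of the 6 comparisons between lines, EYFP against tdTomato NSCs and EYFP against hippocampal astrocytes. Other clusters with all tested genes called in the same direction were Mest with Copg2 and Igf2r with Airn in EYFP against tdTomato NSCs, Peg10 with Sgce in both traced lines against hippocampal NSCs, and Peg10 with Sgce and the 3 Kcnq1 genes in tdTomato against hippocampal astrocytes. The last comparison rests on calls that were lost when any of 4 libraries was left out for Peg10 (0.20), Sgce (0.16) and Cd81 (0.12) and any of 3 for Kcnq1ot1 (0.87, down to 0.47 with an adjusted p of 0.14 without hippocampal library 1). Those of Peg10 and Sgce were also lost without a filter or without the variance trend. Genes of a cluster were called in opposite directions for Igf2r (-0.40, adjusted p = 0.00078) and Airn (0.62, adjusted p = 0.0026) and for Nnat (1.47) and Blcap (-0.29, adjusted p = 0.00091) in EYFP against hippocampal NSCs, for Mest and Copg2 in tdTomato against hippocampal NSCs, and within the Prader-Willi and Angelman region in 5 of the 6 comparisons. This tally is a description, with no share over all genes beside it. Peg3 (chr7:6703892-6730431) is a paternally expressed zinc finger gene linked to growth and to stem cells, Usp29 (chr7:6730578-6967219) is a paternally expressed ubiquitin protease gene that shares its promoter region, and Zim1 (chr7:6671269-6696450) is a maternally expressed zinc finger gene whose start lies 33981 bases from that of Peg3. Peg3 was at 12.05, 11.94 and 11.94 in tdTomato NSCs, 12.41, 12.40 and 12.47 in EYFP NSCs and 12.05, 11.95 and 11.98 in hippocampal NSCs. In astrocytes it was at 12.37, 12.42 and 12.42, 12.31, 12.41 and 12.42 and 11.21, 11.37 and 11.60. Peg3 was therefore highest in EYFP NSCs and in both traced astrocyte groups, and all hippocampal astrocyte libraries lay below every other library. Peg3 exceeded hippocampal astrocytes by 1.01 ± 0.07 in the tdTomato line (adjusted p = 7e-10) and by 0.99 ± 0.07 in the EYFP line (adjusted p = 1.2e-09). It rose by 0.43 in the tdTomato line, fell by 0.60 in the hippocampal line and changed by -0.05 in the EYFP line (adjusted p = 0.52).

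Zim1, added after its values were seen, was at 5.30, 5.24 and 5.09 in tdTomato NSCs, 6.17, 6.11 and 6.32 in EYFP NSCs and 5.65, 5.91 and 5.56 in hippocampal NSCs, without overlap. In astrocytes it was at 5.55, 6.28 and 6.06, 5.26, 5.76 and 5.58 and 3.76, 4.34 and 4.59, and again the hippocampal libraries were below all the others. It rose by 0.75 ± 0.21 in the tdTomato line (adjusted p = 0.0031), fell by 0.66 in the EYFP line (adjusted p = 0.0079) and fell by 1.48 in the hippocampal line (adjusted p = 3.8e-06). The difference in change was 1.52 ± 0.25 between traced and hippocampal lines (adjusted p = 9.1e-05). Between the EYFP and the tdTomato line it was -1.41 ± 0.29 (adjusted p = 0.0041). Zim1 was the 1 imprinted gene called in this last comparison with a difference of at least 1, beside 2.4% of all genes.

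Usp29 was at 6.70, 6.73 and 6.66 in tdTomato NSCs, 7.27, 7.10 and 7.33 in EYFP NSCs and 6.85, 6.95 and 7.15 in hippocampal NSCs. It fell in all lines, to 5.80, 6.26 and 6.26, 6.60, 6.39 and 6.79 and 5.48, 5.78 and 6.22 in astrocytes, where the tdTomato and hippocampal libraries overlapped. In EYFP against tdTomato NSCs all genes of the cluster were higher: Zim1 by 0.99 (adjusted p = 0.0016), Usp29 by 0.54 (adjusted p = 0.02) and Peg3 by 0.45 (adjusted p = 8e-05). The call for Usp29 was lost without tdTomato library 3 (0.52, adjusted p = 0.065), EYFP library 1 (0.52, adjusted p = 0.062) or EYFP library 3 (0.49, adjusted p = 0.061). In tdTomato against hippocampal NSCs Zim1, Usp29 and Peg3 had differences of -0.50, -0.29 and -0.02 (adjusted p = 0.069, 0.19 and 0.86). In EYFP against hippocampal astrocytes they were higher by 1.31, 0.77 and 0.99 (adjusted p = 3.9e-05, 0.00085 and 1.2e-09). In tdTomato against hippocampal astrocytes Zim1 and Peg3 were called, and Usp29 had a difference of 0.28 (adjusted p = 0.16). In EYFP against tdTomato astrocytes the differences of Zim1, Usp29 and Peg3 were -0.42, 0.49 and -0.02 (adjusted p = 0.2, 0.06 and 0.88), with opposite signs and none called. Both listed genes beside the cluster were picked after their values were seen. Zfp28, a zinc finger gene, was also higher in EYFP than in tdTomato NSCs, by 0.47 ± 0.09 (adjusted p = 0.00054), and had differences from hippocampal astrocytes of -0.02 and 0.06 (adjusted p = 0.84 and 0.61). Clcn4, a gene of a chloride transporter, differed by -0.04 between the traced NSCs (adjusted p = 0.44) and was higher in tdTomato and EYFP than in hippocampal astrocytes, by 0.48 in each (SE 0.04, adjusted p = 7.5e-09 and 8e-09).

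Igf2r (chr17:12682406-12769664), the maternally expressed receptor that clears IGF2 and carries lysosomal enzymes, stood out in hippocampal astrocytes. It was at 10.74, 11.08 and 11.005 in tdTomato NSCs, 10.24, 10.39 and 10.47 in EYFP NSCs and 10.71, 10.81 and 10.76 in hippocampal NSCs. Values in astrocytes were 10.55, 10.70 and 10.73, 10.27, 10.42 and 10.45 and 11.79, 11.78 and 11.76. Hippocampal astrocytes lay above all other libraries, with differences of -1.12 for the tdTomato line (adjusted p = 9.7e-10) and -1.40 for the EYFP line (adjusted p = 6.3e-11). The difference in change was -1.15 ± 0.09 (adjusted p = 2.6e-08). Airn (chr17:12741311-12860136), the paternal noncoding RNA that runs antisense across the start of Igf2r and is known to silence it on that copy, was at 5.70, 5.90 and 5.80 in tdTomato NSCs, 5.33, 5.38 and 5.28 in EYFP NSCs and 4.999, 4.56 and 4.57 in hippocampal NSCs. It rose in each line, to 7.10, 7.62 and 7.30, 6.88, 7.02 and 7.06 and 7.31, 7.27 and 7.12 in astrocytes, and hippocampal astrocytes lay within the range of the tdTomato astrocytes. In EYFP against tdTomato NSCs both were lower, Igf2r with a difference of -0.57 (adjusted p = 2.5e-05) and Airn with -0.47 (adjusted p = 0.015), the latter not called without tdTomato library 2 (-0.43, adjusted p = 0.06). In astrocytes the same differences were -0.28 (adjusted p = 0.019) for Igf2r, not called when any of 3 libraries was left out, and -0.36 (adjusted p = 0.1) for Airn. The rise of Airn was 1.54, 1.66 and 2.52 (SE 0.14 each) in the tdTomato, EYFP and hippocampal lines. Both genes were thus higher in hippocampal astrocytes than in hippocampal NSCs, and in tdTomato cells Airn rose while Igf2r fell by 0.28 (adjusted p = 0.0028). The annotated exons of the pair do not overlap, although their spans do.

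The tdTomato and EYFP lines come from the same tissue and the same Cre. Comparing them in NSCs, 8 of 25 imprinted genes were higher in the EYFP line and 9 lower, beside 14.9% and 16.4% of all genes, and 2 differed by at least 1, beside 3%. The median size of the difference was 0.300 for imprinted genes and 0.154 for all genes. Without tdTomato NSC library 2 or library 3 the number called went from 17 to 11, and 9 of the 17 calls held with each library left out. In astrocytes 5 were higher and 2 lower, beside 7.31% and 7.06% of all genes, and 1 differed by at least 1, beside 2.25%. Here 4 were called without tdTomato library 2, tdTomato library 3 or EYFP library 3, and 2 of the 7 calls held with each library left out.

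Ndn (chr7:62346569-62350262), which encodes necdin, a growth suppressor of neurons missing in Prader-Willi syndrome, had the largest difference between the traced lines among the 25 genes tested. It was at 7.68, 7.39 and 7.30 in tdTomato NSCs, 8.59, 8.62 and 8.77 in EYFP NSCs and 8.03, 7.98 and 8.01 in hippocampal NSCs. In astrocytes it was at 7.15, 6.99 and 6.84, 8.37, 8.25 and 8.33 and 8.19, 8.05 and 7.93. The tdTomato libraries were below all others in both cell types. The EYFP line was higher than the tdTomato line by 1.21 ± 0.10 in NSCs (adjusted p = 1.2e-07) and by 1.32 ± 0.10 in astrocytes (adjusted p = 5.4e-08). The other genes of the Prader-Willi and Angelman region differed less, with calls in both directions in NSCs. In astrocytes, of the 5 genes of the region tested, 2 were called higher, Ndn and Peg12, and 0 lower. Peg12 had differences of 0.18 in NSCs (adjusted p = 0.038) and 0.25 in astrocytes (adjusted p = 0.014), of which the first was not called when any of the 6 libraries was left out (0.15 to 0.20) and the second without tdTomato library 3 (0.21, adjusted p = 0.064). Snrpn, a gene for a splicing protein, had a difference of -0.36 in NSCs (adjusted p = 0.00034). Mkrn3, a ubiquitin ligase gene known for its part in the timing of puberty, had a difference of -0.42 in NSCs (adjusted p = 0.026), which was not called when any of 4 of the 6 libraries was left out, with values from -0.44 to -0.32. Ube3a, the ubiquitin ligase gene of Angelman syndrome, which is imprinted in neurons, stayed between 11.26 and 11.81 in all libraries, and its difference in NSCs was -0.07 (adjusted p = 0.56). Exons of other genes overlap 27.3% of Snrpn on its own strand, Snurf among them, and 27.3% of Ube3a on the other strand.

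Nnat (chr2:157560078-157562522), the gene for neuronatin, a small membrane protein of the developing brain, was at 9.61, 9.60 and 9.50 in tdTomato NSCs, 10.67, 10.64 and 10.57 in EYFP NSCs and 8.80, 9.28 and 9.40 in hippocampal NSCs. The EYFP NSCs were above the others by 1.06 ± 0.29 (tdTomato, adjusted p = 0.0097) and 1.47 ± 0.29 (hippocampal, adjusted p = 0.00087). In astrocytes Nnat was at 8.02, 7.96 and 8.77, 9.26, 8.53 and 9.88 and 7.87, 8.16 and 8.90. The library numbered 3 was the highest in each astrocyte group and the groups overlapped. The EYFP differences in astrocytes were 0.98 from tdTomato (adjusted p = 0.029) and 0.92 from hippocampal cells (adjusted p = 0.013), and without EYFP library 3 they were 0.65 (adjusted p = 0.18) and 0.59 (adjusted p = 0.091). The first was also not called without tdTomato library 1 (0.86) or 2 (0.83) or EYFP library 1 (0.96), and the second without hippocampal library 1 (0.70). Blcap, within whose span Nnat lies, had differences of 0.06 between the traced NSCs (adjusted p = 0.49) and -0.12 between the traced astrocytes (adjusted p = 0.18). Nnat changed by -1.32, -1.40 and -0.85 during differentiation, the last not called without hippocampal NSC library 3 (-0.73, adjusted p = 0.053) or astrocyte library 1 (-0.63, adjusted p = 0.074), while Blcap rose by 1.01, 0.83 and 0.47. Blcap, a gene of a small membrane protein, was at 9.71, 9.83 and 9.66, 9.78, 9.88 and 9.71 and 9.98, 10.13 and 10.13 in NSCs and at 10.77, 10.74 and 10.72, 10.56, 10.59 and 10.70 and 10.58, 10.48 and 10.60 in astrocytes, without overlap between the cell types.

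**Figure D3:**
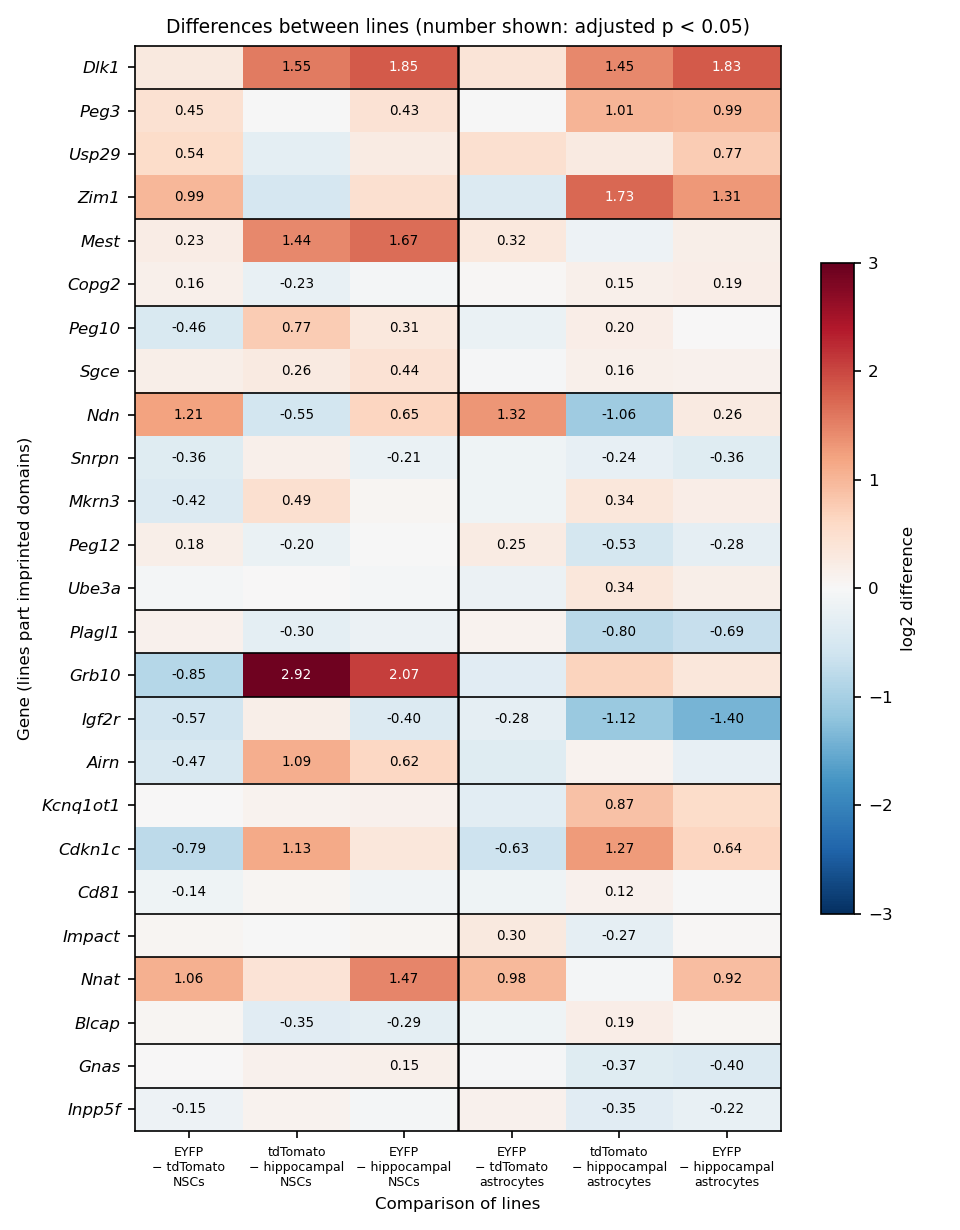
Log2 differences between lines for the 25 imprinted genes tested (rows, parted into clusters by black lines) in the 6 comparisons of lines (columns), with the number printed where the adjusted p was under 0.05. The Peg3, Usp29 and Zim1 rows are all positive in EYFP against tdTomato NSCs, whereas Ndn at 1.21 stands beside Snrpn at -0.36 within its cluster.

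Each traced line was also compared with the hippocampal line. These comparisons share the hippocampal libraries, so each is given by its own values. In tdTomato NSCs 8 imprinted genes were higher and 5 lower than in hippocampal NSCs, beside 19.8% and 17.3% of all genes, and 5 differed by at least 1, beside 6.21%. In EYFP NSCs 10 were higher and 3 lower, beside 13.8% and 12%, and 4 differed by at least 1, beside 4.61%. In tdTomato astrocytes 12 were higher and 8 lower, beside 27.2% and 31%, and 6 differed by at least 1, beside 12.7%. In EYFP astrocytes 8 were higher and 6 lower, beside 24.1% and 27.5%, and 3 differed by at least 1, beside 10.8%. The median size of the difference was 0.288, 0.291, 0.345 and 0.282 for the imprinted genes and 0.168, 0.133, 0.269 and 0.235 for all genes, in this order.

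Dlk1 (chr12:109452823-109463336), a paternally expressed ligand of the Notch family that is known from postnatal neural stem cells, passed the filter only through 4 EYFP libraries, of the line in which it is highest, so it had to differ from lines where it is low. It was added after its values were seen. It was at 2.62, 3.11 and 3.02 in tdTomato NSCs, 2.97, 3.35 and 3.33 in EYFP NSCs and 1.37, 1.38 and 1.36 in hippocampal NSCs. In astrocytes it was at 3.22, 3.06 and 2.32, 3.57, 3.43 and 2.73 and 1.43, 1.43 and 1.39. The hippocampal libraries lay between 1.36 and 1.43 and below all traced libraries. As a description, the differences from hippocampal cells were 1.55 and 1.85 in NSCs and 1.45 and 1.83 in astrocytes, and with a pseudocount of 10 they shrank to 0.48, 0.62, 0.46 and 0.63. The counts against the hippocampal line include it. Without Dlk1, 7 and 9 imprinted genes were higher in tdTomato and EYFP NSCs and 11 and 7 in astrocytes, and 4 and 3 differed by at least 1 in NSCs and 5 and 2 in astrocytes.

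Some differences between lines were called in both cell types. EYFP against tdTomato was called in the same direction in NSCs and astrocytes for 6 imprinted genes, beside 6.88% of all genes, and for 0 in opposite directions, beside 0.893%. The 6 were Mest, Ndn, Peg12, Igf2r, Cdkn1c and Nnat. Without EYFP astrocyte library 3 the calls of Mest, Cdkn1c and Nnat were lost, and Ndn alone was called in both cell types with each library left out. tdTomato against hippocampal was called in the same direction for 8 and in opposite directions for 2, beside 18.3% and 7.22%, or for 7 and 2 without Dlk1. For EYFP against hippocampal the numbers were 6 and 1, beside 12.5% and 4.71%, or 5 and 1 without Dlk1. Over all comparisons 150 differences or changes of imprinted genes were called, of which 118 held with each library left out in turn.

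Of the genes that stand alone in the list for their cluster, Gnas, whose main product is a G protein subunit, rose by 0.31, 0.26 and 0.80, but by 0.05, 0.03 and 0.32 with quantile normalization. With that scaling the tdTomato and EYFP changes were not called (adjusted p = 0.41 and 0.57). The exons of Gnas overlap those of Nespas and another gene on the other strand over 22% of their length. Impact, a regulator of translation under stress, rose by 0.62, 0.87 and 0.88 (SE 0.06 each) and ranged over 9.96 to 10.99. Inpp5f, a gene of a phosphoinositide phosphatase, ranged over 10.06 to 10.58 and changed by -0.38 in the tdTomato line, by -0.10 in the EYFP line (adjusted p = 0.037, not called when any of 5 of the 6 libraries was left out) and by 0.07 in the hippocampal line (adjusted p = 0.15).

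The 7 genes under the filter were Igf2, H19, Asb4, Ddc, Phlda2, Ascl2 and Zdbf2. Igf2, the growth factor that IGF2R clears, lay between 2.04 and 3.20 in all libraries and H19, its maternal noncoding neighbour, between 0.45 and 1.64. Of the exonic bases of Igf2, 62.8% also belong to Gm49394 on the same strand. Phlda2, known as a brake on placental growth, was between -2.14 and -2.07, at the lowest values of the table. No difference is given for these genes.

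Imprints are kept through cell division by proteins that include some which recognise and copy DNA methylation. Of 10 listed genes linked to the upkeep of imprints, by these or other roles, 9 were found and tested. In astrocytes 7, 8 and 8 of the 9 were lower in the tdTomato, EYFP and hippocampal lines, beside 38.5%, 37% and 37.3% of all genes. Uhrf1, which recognises hemimethylated DNA after replication, changed by -4.63, -4.12 and -4.05, and Dnmt1, the methyltransferase it recruits, changed by -1.86, -1.47 and -1.25. Zfp57, the zinc finger protein that binds the hexamer shown above, changed by -2.74, -1.97 and -1.18. Zfp57 was lower in hippocampal NSCs (5.44 ± 0.10, SD, n = 3) than in tdTomato (6.53 ± 0.20) and EYFP NSCs (6.34 ± 0.10), with differences of 1.08 (adjusted p = 0.00071) and 0.90 (adjusted p = 0.0049). Of the 9 genes, 5 were higher in tdTomato and 1 in EYFP than in hippocampal NSCs, and 0 lower. Of all genes 19.8% and 13.8% were higher. In EYFP against tdTomato NSCs 4 of the 9 were lower, beside 16.4% of all genes, and 0 higher. Imprinted genes rose and fell in the same astrocytes, and the part of these factors in their levels was not tested.

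**Figure D4:**
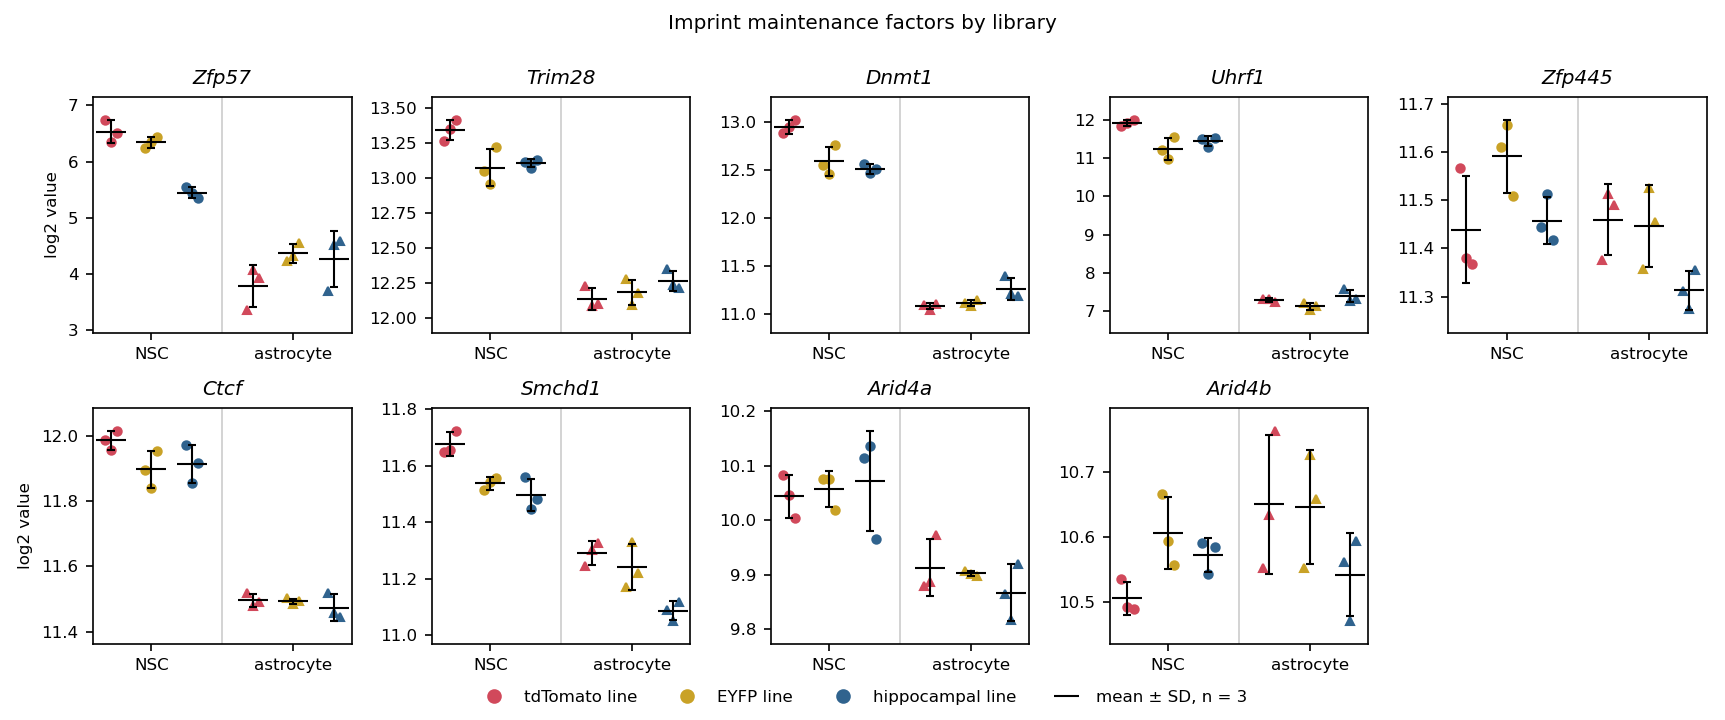
Deposited log2 values (y axis) of 9 genes that maintain imprints in each of the 18 libraries, NSCs as circles and astrocytes as triangles, with the mean and SD of the 3 libraries in black. Uhrf1, Dnmt1, Trim28 and Zfp57 are lower in all astrocyte libraries than in all NSC libraries, whereas Zfp445 and Arid4b overlap between the cell types.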

How the data were processed

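Per the labels and the methods of the study, reads of poly(A) RNA were aligned with STAR to GRCm38, quantified per gene with RSEM and normalized by the authors with DESeq2 1.18.1 in R 3.4.3. Values in the deposited table are log2, with 27997 genes in rows and 18 libraries in columns. Their form is that of a regularized log, which shrinks low genes, but the transform is not named in the sources used here. The read counts cannot be recovered from them. The study gives a typical number of reads per sample, but the depth of each library is not known from the table. The values were used as deposited, with no pseudocount added. The sources differ on the RSEM version, the library kit and the read length.

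The imprinted genes, the other lists and the tests were chosen with earlier results of these data known. All 18 libraries entered 1 limma model (version 3.58.1, R 4.3.3) with a mean per group and a variance trend, which left 12 residual degrees of freedom. Genes that reached 3.32 on the log2 scale in 3 libraries were tested, 15448 in all, with Benjamini-Hochberg adjustment over all of them. The model was run on simulated data with known changes. That simulation drew the noise of each library independently, so it does not cover effects shared by libraries. The 2 tests of a difference in change also required a difference of at least 1. Library values are given for imprinted genes with a group mean of at least 6.64 and group means that span at least 1, except that Peg10 in astrocytes is given by its range. Other genes are given by their range or their differences, and some under the filter by name only. The exceptions Grb10, Cdkn1c, Zim1 and Dlk1 are named. Genes of the other lists are named by the largest difference, at most 3 per list, and Igfbp5, Zfp28 and Clcn4 were added after their values were seen. Alternatives were a replicate block, only the groups compared, other filters, no variance trend, other scalings, pseudocounts, and each library left out in turn. Promoter windows and symbols came from RefSeq tables (GRCm38.p6), gene positions and overlaps from GENCODE M21. Figures were drawn with matplotlib 3.10.9.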

Additional observations from a re-analysis of the deposited data

Results flagged for a closer look

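The changes from NSC to astrocyte of 4 imprinted genes differed between the traced lines and the hippocampal line by a direct test (limma, adjusted p under 0.05 and a difference of at least 1). The mean change of the traced lines minus that of the hippocampal line was 1.52 for Zim1, -1.54 for Mest, -2.00 for Grb10 and -1.15 for Igf2r. All these calls held with each library left out in turn. Between the EYFP and the tdTomato line the change of Zim1 differed by -1.41, with a fall in the EYFP line and a rise in the tdTomato line.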

How the results depend on the processing

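Of 150 calls on imprinted genes, none turned its direction under an alternative that tested it, and 118 held with each library left out. Of the 150, 26 calls on Cdkn1c, Dlk1, Grb10 and Zim1 were not tested with a filter at log2 of 100, and 5 of these, on Cdkn1c and Dlk1, not with only the groups compared. Under the alternatives other than leaving out a library, 129 calls were not lost where tested, and 105 were tested and held under all of them. With libraries left out in turn, the number called in EYFP against tdTomato NSCs went from 17 to between 11 and 14, and in astrocytes from 7 to between 4 and 8. The test of a difference in change between traced and hippocampal lines called 2 genes instead of 4 with a filter at log2 of 100, which Grb10 and Zim1 do not reach. That between the EYFP and tdTomato lines called 2 instead of 1 without a filter, Zim1 and Ddc, and 0 with that filter, since Zim1 was not tested. With the replicate block, which pairs libraries by their number, 23, 19 and 19 imprinted genes were called for the change to astrocytes, 17, 15 and 13 for the comparisons of NSCs, 8, 19 and 16 for those of astrocytes, and 4 and 1 for the differences in change, against 23, 19, 19, 17, 13, 13, 7, 20, 14, 4 and 1 without it. It lost 1 of the 150 calls, Cd81 in tdTomato against hippocampal astrocytes (0.12, adjusted p = 0.053). Deviations of same-numbered libraries from their group means had a mean correlation of 0.106 between lines of a cell type (18 pairs, 0.012 to 0.313). Between cell types of a line it was -0.023 (9 pairs). All 18 of the former were above 0, a small shared part whose source was not tested. The main model left the numbers out, and the counts with them are those of the replicate block. Scaling moved the median of all genes to at most 0.101 for any change. The depth of each library is not known from the table. If the values are a regularized log, its shrinkage limits differences of low genes such as Dlk1.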

Other observations

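A second list held 26 imprinted genes outside the first, of which 21 were found and 15 tested. In astrocytes 8, 8 and 7 rose and 4, 3 and 5 fell in the tdTomato, EYFP and hippocampal lines, beside 39.9%, 38.2% and 39% of all genes that rose and 38.5%, 37% and 37.3% that fell. Adam23, which encodes a cell adhesion protein of neurons, had the largest difference between lines in this list, with 6.05 ± 0.26 (SD, n = 3) in hippocampal NSCs, 4.65 ± 0.08 in tdTomato NSCs and 3.22 ± 0.16 in EYFP NSCs, and the same order of 5.21 ± 0.03, 4.42 ± 0.09 and 3.19 ± 0.45 in astrocytes. The EYFP against hippocampal difference was -2.83 in NSCs (limma, adjusted p = 3.7e-09) and -2.02 in astrocytes (adjusted p = 1e-07). Atp10a, a lipid flippase gene, rose by 0.80, 0.63 and 1.66, and Osbpl5, a sterol-binding protein gene, by 0.88, 0.70 and 1.53.

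Of 10 tested genes of the IGF pathway, 2, 1 and 2 rose and 7, 7 and 4 fell in astrocytes of the same lines, beside the same shares of all genes. The 3 genes with the largest changes in any line encode binding proteins that hold IGFs outside the cell. Igfbp2 changed by -3.28, -4.04 and -3.52, Igfbp3 by -3.70, -3.38 and -4.01, and Igfbp4 by -1.65, -2.18 and -3.26. Igfbp5, a gene of the same family that was added after its values were seen, had changes of 0.32 (adjusted p = 0.02), -0.08 (adjusted p = 0.54) and -0.07 (adjusted p = 0.59). Of 17 tested genes that lie beside imprinted clusters, 5, 3 and 4 rose and 8, 9 and 8 fell in astrocytes, beside the same shares of all genes. In EYFP against tdTomato NSCs 2 were higher and 2 lower, beside 14.9% and 16.4% of all genes, and none differed by at least 1, beside 3%. Fignl1, a gene of DNA repair beside Grb10, changed most of these with changes of -2.93, -2.37 and -3.06.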
